A study of Mus musculus with 6 samples.

Results

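The 6 actin genes of the mouse were followed in C2C12 myoblasts, an established line of mouse muscle precursor cells, after transfection with an siRNA against Usf2. They were taken by symbol from a count table of 55414 gene identifiers, and all 6 were present and passed the filter on low counts. They comprise 2 striated muscle actins (Acta1 of skeletal muscle and Actc1 of heart), 2 smooth muscle actins (Acta2 of vessel walls and Actg2 of the gut) and 2 cytoplasmic actins (Actb and Actg1). The siControl group holds 3 libraries from wild-type C2C12 cells that received the siRNA-NC control, and the siUsf2 group holds 3 libraries from wild-type C2C12 cells that received siRNA-USF2. Both groups were grown in DMEM with fetal bovine serum and transfected by lipofection, and total RNA was extracted with TRIzol. The time between transfection and harvest is not given in the sources used here, and neither is whether the libraries of a group came from separate cultures. The p-values below therefore measure only the spread between these libraries, which may be technical.

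Actin monomers polymerise into the thin filaments of the sarcomere, the contractile bundles of smooth muscle and the cortex and stress fibres of every other cell. The actin proteins differ at only a few residues, so the genes are told apart mainly by where and when they are transcribed. In cultured myoblasts that enter differentiation, striated muscle actins replace part of the cytoplasmic actins. Serum response factor, which binds CArG boxes in actin promoters, is a main activator of the family, and its MRTF coactivators are held back by free actin monomers. Usf2 encodes a basic helix-loop-helix factor that binds the E-box CACGTG.

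The stretch of 250 bases before the RefSeq start site (GRCm38.p6) is shown for Acta1, Actc1, Acta2 and Actg1, the 4 members with a promoter sequence matched by symbol. Actb and Actg2 had no match and were not searched. Capitals mark CArG boxes (2 C, then 6 bases of A or T, then 2 G) and CArG-like runs, in which 1 of the 6 inner bases is C or G. All 4 stretches are read from the minus strand, 5′ to 3′, and cover chr8:123894776-123895025 (Acta1), chr2:114052876-114053125 (Actc1), chr19:34255374-34255623 (Acta2) and chr11:120348496-120348745 (Actg1).
Acta1: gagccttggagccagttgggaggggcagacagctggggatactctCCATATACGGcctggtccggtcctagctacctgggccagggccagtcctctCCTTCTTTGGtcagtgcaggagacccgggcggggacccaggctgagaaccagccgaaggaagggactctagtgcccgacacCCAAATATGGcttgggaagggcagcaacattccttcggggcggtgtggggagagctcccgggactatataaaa
Actc1: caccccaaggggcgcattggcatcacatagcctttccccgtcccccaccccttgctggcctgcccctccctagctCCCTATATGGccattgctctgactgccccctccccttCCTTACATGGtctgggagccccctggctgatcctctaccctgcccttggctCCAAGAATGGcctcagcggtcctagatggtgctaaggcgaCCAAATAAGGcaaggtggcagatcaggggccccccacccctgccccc
Acta2: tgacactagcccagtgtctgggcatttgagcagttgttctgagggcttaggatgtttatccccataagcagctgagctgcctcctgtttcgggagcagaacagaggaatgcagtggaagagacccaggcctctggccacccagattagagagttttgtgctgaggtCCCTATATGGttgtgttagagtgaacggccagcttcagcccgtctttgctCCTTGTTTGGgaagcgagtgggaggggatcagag
Actg1: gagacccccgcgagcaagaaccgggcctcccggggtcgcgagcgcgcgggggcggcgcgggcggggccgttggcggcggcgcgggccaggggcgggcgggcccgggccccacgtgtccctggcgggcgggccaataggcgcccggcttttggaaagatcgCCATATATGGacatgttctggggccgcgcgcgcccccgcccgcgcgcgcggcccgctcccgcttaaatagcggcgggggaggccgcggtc
The Acta1 stretch holds 1 CArG box, 73 bases before the start, and 2 CArG-like runs. The Actc1 stretch holds 1 CArG box, 47 bases before the start, and 3 CArG-like runs. Acta2 has 2 CArG-like runs and no CArG box in these letters, whereas Actg1 has 1 CArG box, 90 bases before the start, and no CArG-like run. Among 32851 promoter stretches of 250 bases, 1.47% hold a CArG box and 7.24% a CArG-like run on either strand. Among these 4 stretches the E-box CACGTG was found in that of Actg1 only, 141 bases before the start, against 6.02% of all stretches. The wider E-box CANNTG, of which CACGTG is one form, was found 2 times in Acta1, 3 times in Acta2 and 1 time in Actg1 (the CACGTG itself), and 66.2% of all stretches hold it. CATTCC, the TEAD site read on either strand, was found 1 time each in Acta1 and Acta2, against 12.6% of all stretches. A match is a description of these letters and not a binding site. The Actc1 stretch lies inside the annotated span of its gene, and the Acta2 and Actg1 stretches reach into theirs, because the annotation also lists a start farther upstream. The Acta1 stretch ends at position 123894776 and does not reach the annotated start of that gene, at 123894751. All distances above are from the RefSeq start.

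Members of the family share 81.5% (Acta2 with Actg1) to 88.6% (Actb with Actg1) of their coding bases, and Acta1 and Actc1 share 86.3%. The longest run identical between any pair of them is 77 bases, between Acta1 and Actb. Annotated genes that overlap a member either held 0 counts in all 6 libraries or were not analysed here.

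Usf2 checks the labels. Its level was 26.2, 31.2 and 23.0 CPM (counts scaled to a library total of 1000000) in siControl 1, 2 and 3, and 17.1 and 15.3 CPM in siUsf2 1 and 2. The library labelled siUsf2 3 had 30.8 CPM, within the control values, which goes against the name it carries. That library also held 3414565 counts against 14790997 to 17715250 in the others, and pseudogenes took 0.974% of its counts against 14.0% to 15.3%. It is therefore shown apart, and every comparison is given for all 6 libraries and for the 5 libraries without it. All 5 myoblast markers (Myod1, Myf5, Pax7, Cdh15 and Des) were detected in every library.

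The striated muscle actins fell. Acta1, the main thin-filament actin of adult skeletal muscle (ENSMUSG00000031972, chr8:123891769-123894751, minus strand, GRCm38), stood at 1563, 1615 and 1793 CPM in siControl 1, 2 and 3, at 375 and 409 CPM in the siUsf2 libraries 1 and 2, and at 718 CPM in the library labelled siUsf2 3. The groups did not overlap, and the library labelled siUsf2 3 lay between siUsf2 1 and 2 and the siControl libraries. Actc1, the actin of heart muscle that is also made early in skeletal muscle differentiation (ENSMUSG00000068614, chr2:114047282-114053548, minus strand), stood at 188, 193 and 238 CPM in siControl 1, 2 and 3, at 37.4 and 43.9 CPM in the siUsf2 libraries 1 and 2, and at 77.9 CPM in the library labelled siUsf2 3. Its groups did not overlap either, with the same library in between. The share of all genes with groups that do not overlap is not given here, so such separations are descriptions only.

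Mean Acta1 was 1657 ± 121 CPM (SD, n = 3) in siControl and 392 ± 24.4 CPM (SD, n = 2) in siUsf2 1 and 2, a 4.23-fold lower level. In the 5-library fit, its log2 fold change of siUsf2 over siControl was -2.09 ± 0.10 (SE), with an adjusted p of 1.44e-15 by edgeR's quasi-likelihood test. Mean Actc1 was 206 ± 27.6 CPM (SD, n = 3) against 40.7 ± 4.60 CPM (SD, n = 2), 5.07-fold lower, with a log2 fold change of -2.36 ± 0.12 (SE) and an edgeR adjusted p of 9.23e-14. Of the 6 actin genes, 2 were called lower and 1 higher without the library labelled siUsf2 3, at an edgeR p below 0.05 after Benjamini-Hochberg adjustment over all genes tested. In that fit 11.4% of 17217 genes were called, 6.4% lower and 4.97% higher.

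When all 6 libraries were used, none of the 6 actin genes was called by edgeR, where 0.042% of 16662 genes were. Acta1 had a log2 fold change of -1.77 ± 0.26 (SE) with an edgeR adjusted p of 0.0890, and Actc1 one of -2.01 ± 0.29 (SE) with an edgeR adjusted p of 0.0897. Both, and Actg2, had an unadjusted edgeR p below 0.05 in this fit, as had 1753 of the 16662 genes tested. DESeq2 and limma-voom, which called 4.24% and 0.624% of all genes, called the same 3 actin genes. In the library labelled siUsf2 3 alone, the log2 level relative to the siControl mean was -1.21 for Acta1 and -1.41 for Actc1, and the 95% exact Poisson intervals of 690 to 747 CPM for Acta1 and 68.8 to 87.8 CPM for Actc1 cover counting error only.

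Markers of differentiating myocytes (Myog, Mymk, Myh3, Ckm and Mymx) moved with the striated muscle actins. All 5 were detected, and their summed level was 2064 to 2095 CPM in siControl, 426 to 486 CPM in the siUsf2 libraries 1 and 2 and 851 CPM in the library labelled siUsf2 3. The myoblast markers summed to 1841 to 2311 CPM, 1599 to 1678 CPM and 2168 CPM. Most of that sum was Des, and its members did not move alike. In the siUsf2 libraries 1 and 2, Des, Cdh15 and Myod1 lay below every siControl library, Pax7 inside the siControl range and Myf5 above it. The part of these markers in the actin result was not tested, and in a bulk culture fewer cells of a type and less RNA per cell cannot be told apart.

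**Figure D1:**
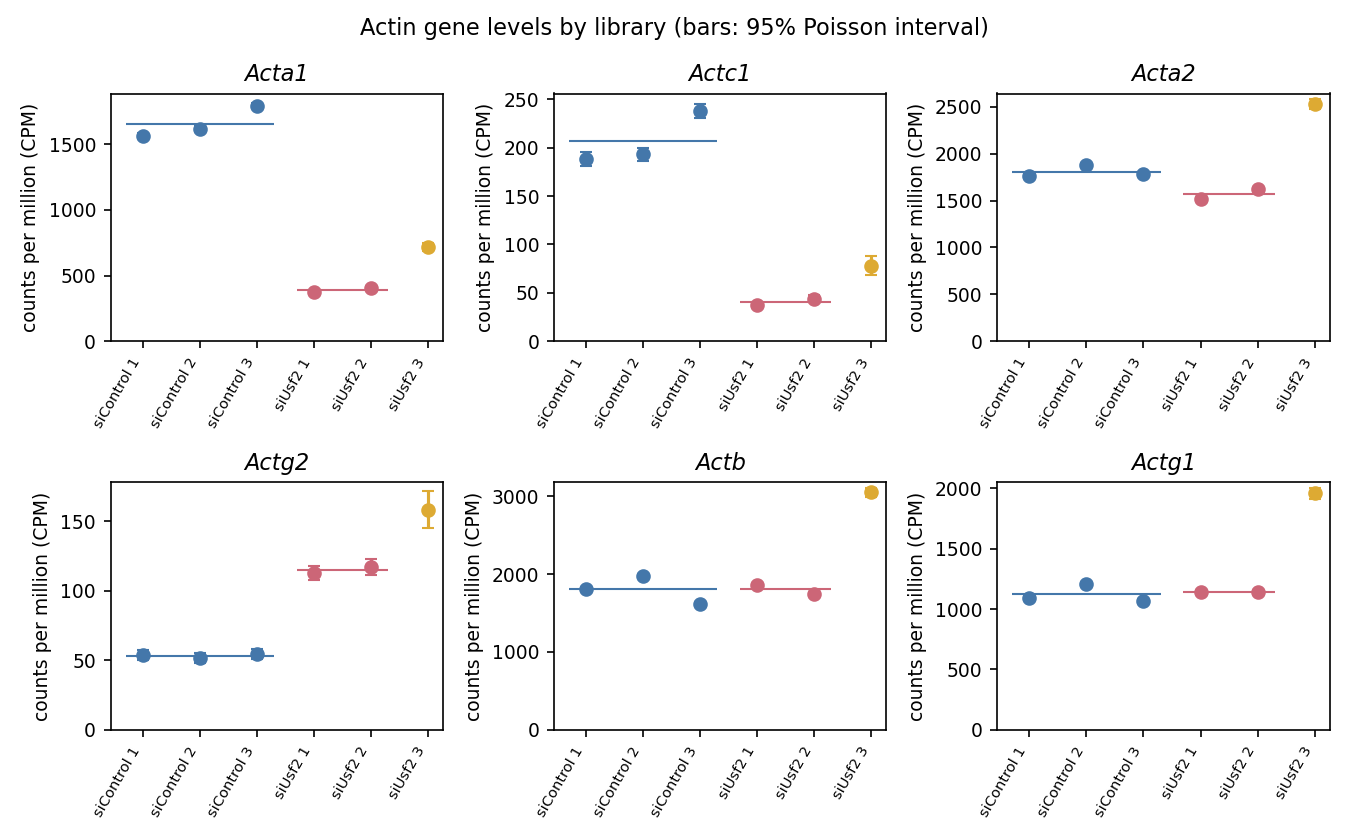
Level of each actin gene in CPM, with 1 point per library, its 95% exact Poisson interval as a bar, and lines at the means of siControl and of siUsf2 1 and 2; each panel has its own linear axis from 0. Acta1 and Actc1 lie lower in all 3 libraries labelled siUsf2 than in siControl, Actg2 lies higher in all 3, and Acta2, Actb and Actg1 are highest in the library labelled siUsf2 3.

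The smooth muscle actins did not move alike. Actg2, the actin of gut smooth muscle (ENSMUSG00000059430, chr6:83512905-83536265, minus strand), stood at 53.6, 51.4 and 54.5 CPM in siControl 1, 2 and 3, at 113 and 117 CPM in the siUsf2 libraries 1 and 2, and at 158 CPM in the library labelled siUsf2 3. All 3 libraries labelled siUsf2 lay above all siControl libraries. Acta2, the actin of vascular smooth muscle that is also abundant in cultured myoblasts and fibroblasts (ENSMUSG00000035783, chr19:34241090-34255590, minus strand), stood at 1760, 1881 and 1783 CPM in siControl 1, 2 and 3, at 1517 and 1625 CPM in the siUsf2 libraries 1 and 2, and at 2533 CPM in the library labelled siUsf2 3. Acta2 was thus lowest in the siUsf2 libraries 1 and 2 and highest in the third library of that label.

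Mean Actg2 rose 2.16-fold, from 53.2 ± 1.63 CPM (SD, n = 3) in siControl to 115 ± 3.07 CPM (SD, n = 2) without the library labelled siUsf2 3, with a log2 fold change of 1.10 ± 0.09 (SE) and an edgeR adjusted p of 2.58e-10 in the 5-library fit. Over 6 libraries its log2 fold change was 1.24 ± 0.13 (SE), with an edgeR adjusted p of 0.0694. Acta2 had a mean of 1808 ± 64.4 CPM (SD, n = 3) in siControl and 1571 ± 76.4 CPM (SD, n = 2) in siUsf2 1 and 2. Its log2 fold change was -0.22 ± 0.09 (SE) with an edgeR adjusted p of 0.111 in the 5-library fit. Leaving out siControl 3 as well brought Acta2 past the threshold, at -0.21 with an edgeR adjusted p of 0.0436. That fit called 1596 genes higher and 1964 lower of 16924 tested, against 855 and 1102 of 17217 in the 5-library fit. Over 6 libraries its log2 fold change was 0.02 ± 0.19 (SE), with an edgeR adjusted p of 0.971.

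The summed level of 5 smooth muscle markers was 14.5 to 17.5 CPM in siControl, 34.8 to 37.0 CPM in the siUsf2 libraries 1 and 2 and 34.0 CPM in the library labelled siUsf2 3. Nearly all of it was Lmod1, with Cnn1 next. Myocd, the coactivator that defines the smooth muscle lineage, was at 0 in all 6 libraries, and Tagln and Myh11 were under 1 CPM in each. Summed fibroblast markers were 1239 to 1273 CPM, 1404 to 1436 CPM and 3239 CPM in the same order. The high sum in the library labelled siUsf2 3 lay in Col1a1 and Col1a2, at 904 and 2186 CPM against 226 to 267 and 819 to 841 CPM in siControl, while Pdgfra was inside the siControl range and Dcn below it. The part of these markers in the Acta2 and Actg2 levels was not tested.

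The cytoplasmic actins differed little between siControl and siUsf2 1 and 2. Actb, the beta actin of the leading edge and cortex (ENSMUSG00000029580, chr5:142903115-142906754, minus strand), stood at 1807, 1982 and 1623 CPM in siControl 1, 2 and 3, at 1863 and 1749 CPM in the siUsf2 libraries 1 and 2, and at 3050 CPM in the library labelled siUsf2 3. Actg1, the gamma actin that polymerises together with beta actin (ENSMUSG00000062825, chr11:120345690-120348542, minus strand), stood at 1089, 1205 and 1067 CPM in siControl 1, 2 and 3, at 1141 and 1138 CPM in the siUsf2 libraries 1 and 2, and at 1957 CPM in the library labelled siUsf2 3. For both genes siUsf2 1 and 2 lay inside the siControl range, and the remaining library lay above every other.

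The 5-library log2 fold change of Actb was -0.01 ± 0.09 (SE), with an edgeR adjusted p of 0.963, and that of Actg1 was 0.01 ± 0.09 (SE), with an edgeR adjusted p of 0.959. Over 6 libraries the log2 fold changes were 0.26 ± 0.22 (SE) for Actb and 0.29 ± 0.22 (SE) for Actg1, with edgeR adjusted p of 0.760 and 0.722. Neither gene was called in either fit. In the library labelled siUsf2 3, Actb was 0.76 and Actg1 0.80 log2 units above the siControl mean.

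Both cytoplasmic genes have annotated processed pseudogenes, which are intronless copies of their transcripts, and counts were assigned to these copies. By sequence, 11 annotated pseudogenes were paired with Actg1 and 3 with Actb, and none with the 4 muscle actin genes. Gm12715, a copy of Actg1 at chr4:103563402-103564529 (plus strand), carries the whole coding sequence with 99.6% identity and no gap. Across 1128 bases it differs at 4 positions counted from the A of the Actg1 start codon, T858C, G861T, T864C and G1002A, with the Actg1 base first. The coding strand from position 834 to 893 is shown because it holds 3 of the 4 differences, in capitals, while the 857 bases before the first of them are identical.
Actg1: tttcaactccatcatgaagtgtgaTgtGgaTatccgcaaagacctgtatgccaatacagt
Gm12715: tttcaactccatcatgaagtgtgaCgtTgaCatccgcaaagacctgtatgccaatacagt
A read from the identical stretch cannot be assigned to the gene or its copy by sequence alone.

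Gm12715 held 23324, 26470 and 23892 counts in siControl 1, 2 and 3 and 24936 and 23383 counts in siUsf2 1 and 2, but 56 counts in the library labelled siUsf2 3. As a share of the summed counts of Actg1 and its 11 copies, that was 48.5% to 52.0% in the first 5 libraries and 0.828% in the last. Gm8399, a further Actg1 copy (chr13:81064684-81065800, plus strand, 98.6% identity), held 11.2% to 12.3% and 0.311% of the same sum. All 11 copies together held 64.1%, 62.9% and 61.6% in siControl 1, 2 and 3, 63.4% and 63.2% in the siUsf2 libraries 1 and 2, and 1.20% in the library labelled siUsf2 3. In 5 libraries the copies thus held more counts than Actg1 itself.

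The Actb copies behaved alike at a lower level. They held 21.9%, 22.4% and 24.1% of the summed counts of Actb and its copies in siControl 1, 2 and 3, 23.5% and 23.0% in the siUsf2 libraries 1 and 2, and 0 counts in the library labelled siUsf2 3. Nearly all of these counts fell on Gm4750 (chrX:152432477-152434676, plus strand) and Gm8464 (chrX:152489661-152491860, minus strand). Each aligned to Actb with 90.9% identity over 65.7% of its own transcript, unlike Gm12715, which aligned to Actg1 over its whole length. The 5-library log2 fold changes were 0.03 for Gm12715, 0.10 for Gm8399, 0.04 for Gm4750 and 0.01 for Gm8464. Their edgeR adjusted p were 0.884, 0.464, 0.843 and 0.976, so none of the 4 was called.

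Adding the copies raised the levels of 5 libraries, kept siUsf2 1 and 2 beside siControl, and left the library labelled siUsf2 3 nearly where it was. Actg1 with its copies was 3018 ± 232 CPM (SD, n = 3) in siControl, 3104 ± 16.3 CPM (SD, n = 2) in the siUsf2 libraries 1 and 2 and 1981 CPM in the library labelled siUsf2 3, a log2 difference of -0.61 from the siControl mean in that library. Actb with its copies was 2335 ± 209 CPM (SD, n = 3), 2353 ± 115 CPM (SD, n = 2) and 3050 CPM, 0.39 log2 units above siControl in the last library. The direction of the Actg1 difference in that library thus depended on whether the copies were counted.

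**Figure D2:**
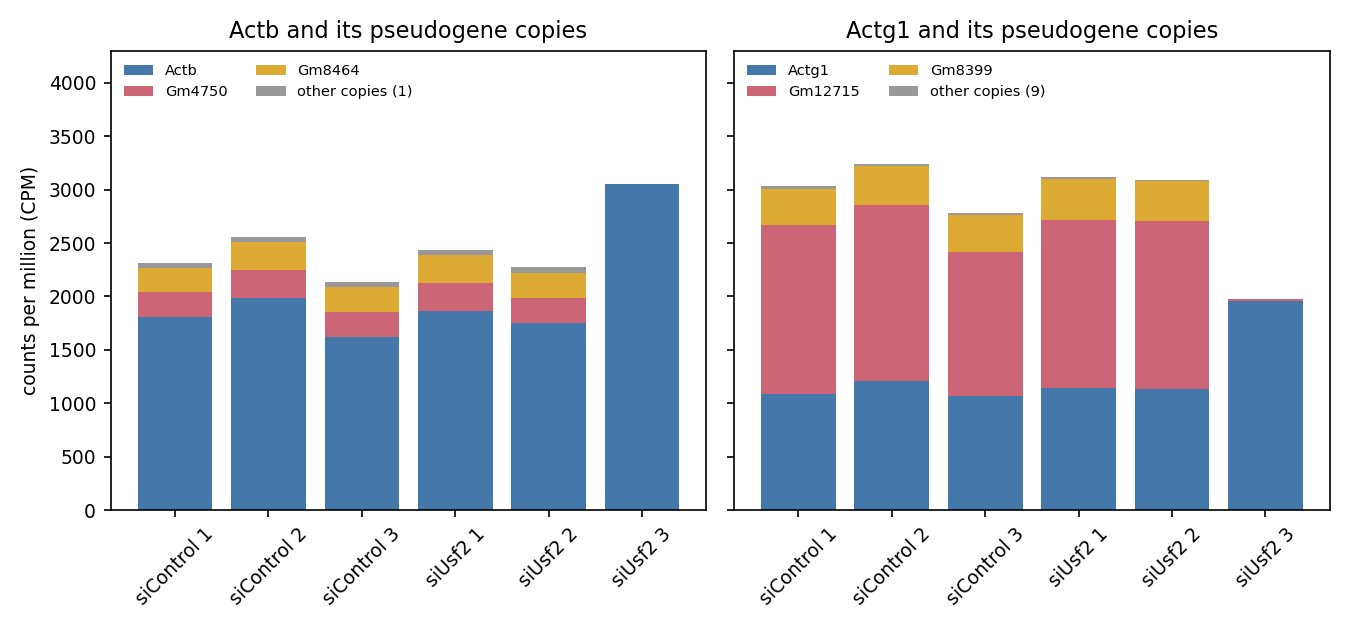
Level of Actb (left) and Actg1 (right) in CPM as stacked bars, with 1 bar per library, the named pseudogene copies above the gene and the other copies on top. Copies make up 61.6% to 64.1% of the Actg1 bars and 21.9% to 24.1% of the Actb bars in 5 libraries, and 1.20% and 0% in the library labelled siUsf2 3.

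Levels of different genes were compared as CPM per kilobase of annotated exon (RPKM). In siControl the order was Acta1 at 1079 ± 78.8 RPKM, Acta2 at 823 ± 29.3, Actb at 673 ± 67.1, Actg1 at 422 ± 27.8, Actc1 at 128 ± 17.0 and Actg2 at 34.1 ± 1.05 RPKM (SD, n = 3). No neighbours in that order overlapped between libraries. In siUsf2 1 and 2 the order was Acta2 at 715 ± 34.8 RPKM, Actb at 674 ± 30.1, Actg1 at 429, Acta1 at 255 ± 15.9, Actg2 at 73.8 ± 1.97 and Actc1 at 25.1 ± 2.84 RPKM (SD, n = 2). Acta2 and Actb overlapped there, with 691 and 740 RPKM for Acta2 and 695 and 653 RPKM for Actb. Acta1 thus stood above the other 5 genes in siControl and below Actg1 in siUsf2 1 and 2, and Actg2 moved above Actc1. The library labelled siUsf2 3 had the same order as siUsf2 1 and 2, from Acta2 at 1153 RPKM and Actb at 1138 to Actg2 at 102 and Actc1 at 48.1 RPKM. These levels of Actb and Actg1 leave out their copies, and counting the copies turned the siControl order. Per kilobase of the gene's own exons, Actg1 with its copies was then 1135 ± 87.3 RPKM, overlapping Acta1, and Actb with its copies 872 ± 78.1 RPKM, overlapping Acta2 (SD, n = 3). In siUsf2 1 and 2, Actg1 with its copies was 1168 ± 6.12 RPKM and Actb with its copies 878 ± 42.8 RPKM (SD, n = 2), both above Acta2.

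The make-up of the actin counts, which does not depend on scaling between libraries, held a smaller striated share in the libraries labelled siUsf2. Shares of a whole are tied, so a smaller striated share raises the other shares even where the levels of those genes stay the same. In the 5-library fit the log2 fold changes of Actb and Actg1 were -0.01 and 0.01. Acta1 and Actc1 together made up 27.1%, 26.1% and 31.0% of the counts of the 6 genes in siControl 1, 2 and 3, 8.17% and 8.92% in the siUsf2 libraries 1 and 2, and 9.37% in the library labelled siUsf2 3, with a 95% exact binomial interval of 9.04% to 9.71% for the last. On this measure, which leaves out the pseudogene copies, the library labelled siUsf2 3 lay close to siUsf2 1 and 2 and apart from siControl. With copies counted it lay farther from them, at 9.34% against 5.43% and 5.99%, and still below siControl. Without copies the share was 28.1% ± 2.58 (SD, n = 3) in siControl and 8.82% ± 0.605 (SD, n = 3) in all libraries labelled siUsf2. The difference of -19.2 percentage points had a two-sided exact permutation p of 0.1, the smallest that 3 against 3 libraries can give. Without the library labelled siUsf2 3 it was -19.5 points, with an exact permutation p of 0.2, again the smallest possible.

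Actb and Actg1 together made up 44.8%, 46.0% and 41.0% in siControl 1, 2 and 3, 59.5% and 56.8% in the siUsf2 libraries 1 and 2, and 58.9% in the library labelled siUsf2 3. Acta2 and Actg2 together made up 27.9% to 28.1% in siControl and 31.7% to 34.3% in the libraries labelled siUsf2. When pseudogene copies were counted with their genes, the striated share was 19.7%, 19.0% and 23.1% in siControl, 5.43% and 5.99% in the siUsf2 libraries 1 and 2 and 9.34% in the library labelled siUsf2 3. In the striated share the groups did not overlap on either count. Counted with copies, Actb and Actg1 together made up 55.97% to 60.79% in siControl and 73.11% and 70.97% in siUsf2 1 and 2. The library labelled siUsf2 3 had 59.06%, inside the siControl range. Its higher cytoplasmic share was thus present only without copies.

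**Figure D3:**
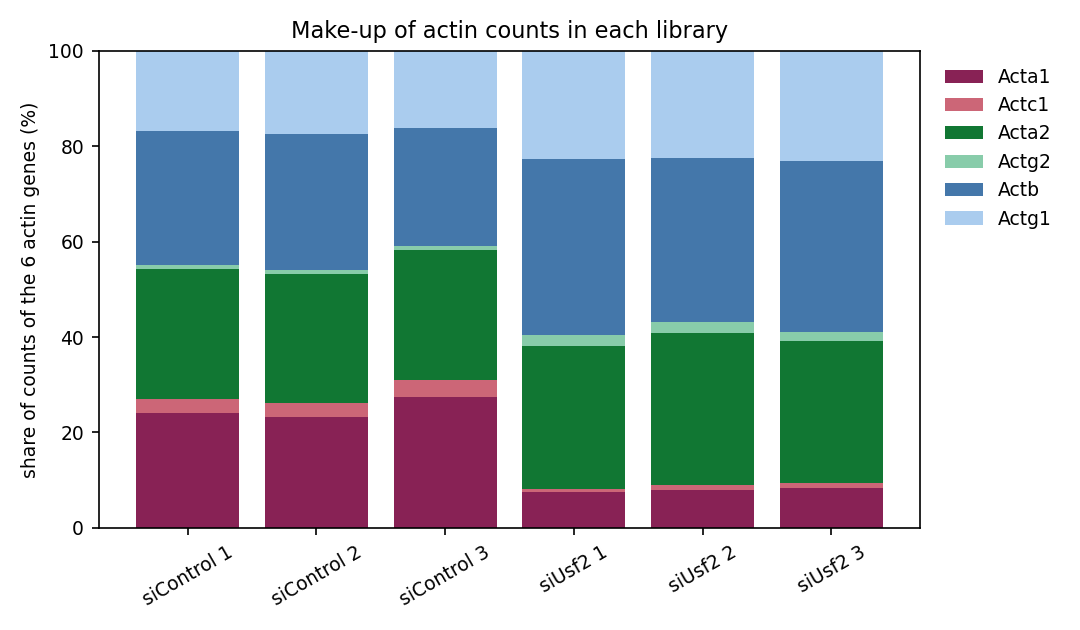
Share of each actin gene in the summed counts of the 6 genes, in percent, as stacked bars with 1 bar per library. The striated muscle actins fill 26.1% to 31.0% of each siControl bar and 8.17% to 9.37% of each bar labelled siUsf2.

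The summed level of the 6 genes was 6461, 6927 and 6559 CPM in siControl 1, 2 and 3, 5045 and 5081 CPM in the siUsf2 libraries 1 and 2, and 8494 CPM in the library labelled siUsf2 3. The sum was thus lowest in the siUsf2 libraries 1 and 2 and highest in the third library of that label. The log2 difference was -0.14 with all 6 libraries, with an exact permutation p of 0.6, and -0.39 without the library labelled siUsf2 3, with an exact permutation p of 0.2. With copies included the sums were 8908, 9539 and 8787 CPM, 7592 and 7560 CPM, and 8517 CPM, and the groups did not overlap.

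Ratios of counts within each pair of actins showed whether partners moved by the same amount. Acta1 over Actc1 was 8.31, 8.36 and 7.53 in siControl 1, 2 and 3, 10.0 and 9.32 in the siUsf2 libraries 1 and 2, and 9.21 in the library labelled siUsf2 3. Actg2 over Acta2 was 0.0305, 0.0273 and 0.0306, then 0.0744 and 0.0721, and 0.0624 in the last library. Neither ratio overlapped between groups, so Actc1 was lower relative to Acta1, and Actg2 higher relative to Acta2, in every library labelled siUsf2. The log2 differences over 6 libraries were 0.24 for Acta1 over Actc1 and 1.24 for Actg2 over Acta2, each with an exact permutation p of 0.1, or 0.15 after adjustment over the 3 ratios. Actb over Actg1 was 1.66, 1.65 and 1.52 in siControl, 1.63 and 1.54 in the siUsf2 libraries 1 and 2 and 1.56 in the library labelled siUsf2 3, with overlapping groups and an exact permutation p of 0.7 for a log2 difference of -0.03.

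**Figure D4:**
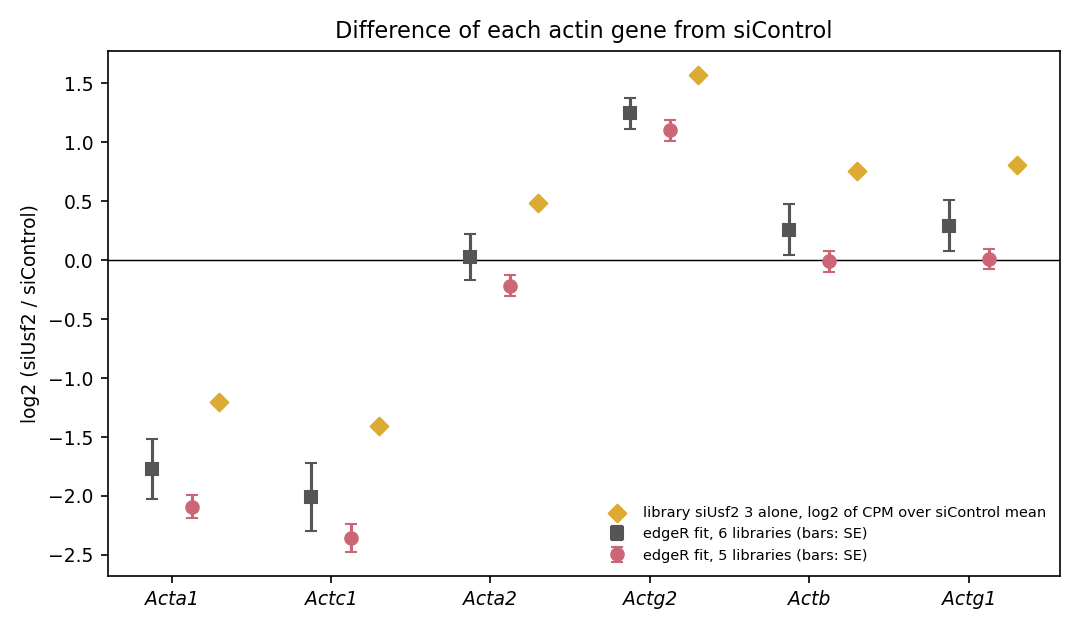
Log2 fold change of siUsf2 over siControl for each actin gene with its standard error from edgeR, for all 6 libraries and for the 5 without the library labelled siUsf2 3, with diamonds for the log2 CPM of that library alone over the siControl mean. Both fits place Acta1 at -1.77 or lower, Actc1 at -2.01 or lower and Actg2 at 1.10 or higher, while Acta2, Actb and Actg1 lie between -0.22 and 0.29; every diamond lies above both fits.

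The genes with the library pattern most like each muscle actin were found by the root mean square difference of centred log2 CPM over the 6 libraries, among 9119 genes. Closest to Acta1 were Erbb3, a neuregulin receptor, at 0.07, Tnni1, slow skeletal troponin I, at 0.12, and Lmod2, a nucleator of sarcomeric actin filaments, at 0.13 log2 units. Closest to Actc1 were Mybph, a thick-filament protein, at 0.08, Mymk, the myoblast fusion protein myomaker, at 0.12, and Ckm, muscle creatine kinase, at 0.14. Closest to Acta2 were Derl1, Nup133 and Hsd17b10 at 0.04 each. Closest to Actg2 were Psrc1 at 0.18, Car9 at 0.22 and Ndrg1 at 0.24, farther off than for the other 3 genes. The libraries are shared by all these genes, and the measure is a description.

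Among genes that control or handle actin, 128 genes in 7 lists were followed, and 116 were tested without the library labelled siUsf2 3. Of these, edgeR called 14 higher and 10 lower, against 4.97% and 6.4% of all genes tested. With all 6 libraries 115 were tested and none was called by edgeR, whereas DESeq2 called 9 higher and 4 lower, against 1.78% and 2.46% of all genes tested. In the 5-library fit the number of list genes called higher was 7 when siControl 1 was also left out, and 8 or 6 when siUsf2 1 or 2 was. The share of all genes called higher was 2.76%, 1.95% and 2.63% in these 3 fits, also below the 4.97% of the 5 libraries.

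The list of serum response factor, its coactivators and partners and the TEAD factors had 16 tested genes, 1 called higher and 1 lower, with a median log2 fold change of 0.06 against -0.01 for all genes. Tead4, a TEAD factor of muscle differentiation, fell from 38.2 ± 2.22 CPM (SD, n = 3) to 16.1 ± 0.861 CPM (SD, n = 2), with a log2 fold change of -1.25 ± 0.12 (SE) and an edgeR adjusted p of 1.29e-08. The library labelled siUsf2 3 had 21.4 CPM of Tead4, also below every siControl library. Srf itself, which encodes serum response factor, had a log2 fold change of -0.16 with an edgeR adjusted p of 0.286, and its coactivators Mrtfa and Mrtfb had 0.19 and 0.17 with edgeR adjusted p of 0.234 and 0.337. Without siControl 3, Srf and Mrtfb passed the threshold at -0.23 and 0.27, with edgeR adjusted p of 0.0414 and 0.0361. In that fit 1596 genes were called higher and 1964 lower of 16924 tested, against 855 and 1102 of 17217 with siControl 3. Fhl2, a LIM protein that partners serum response factor, was called at 0.28 with an edgeR adjusted p of 0.0370, and leaving out any library but siControl 3 ended the call, at adjusted p of 0.0547 to 0.351, as did no filter on low counts, at 0.0526.

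Smooth muscle contractile genes had 8 tested members, 3 of them called higher and none lower, with a median log2 fold change of 0.32. Lmod1, the smooth muscle leiomodin that nucleates actin filaments, rose from 14.4 ± 1.13 CPM (SD, n = 3) to 31.0 ± 1.36 CPM (SD, n = 2), by 1.09 ± 0.13 (SE) on the log2 scale with an edgeR adjusted p of 5.22e-07, and stood at 28.4 CPM in the library labelled siUsf2 3. Cnn1, a calponin that binds actin filaments, rose from 0.973 to 4.15 CPM, with a log2 fold change of 2.10 ± 0.38 (SE) and an edgeR adjusted p of 3.19e-04, and stood at 5.56 CPM in the library labelled siUsf2 3. These genes had their higher levels in the same 3 libraries as Actg2. Csrp1, a LIM protein of smooth muscle, was called at 0.35 with an edgeR adjusted p of 0.0104. Without siControl 1 or siUsf2 1 its adjusted p was 0.0618 or 0.169 and the call ended.

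Of 22 tested genes for monomer binding and filament turnover, 3 were called higher and 2 lower, with a median log2 fold change of -0.09. Cap2, a cyclase-associated protein that recycles actin monomers in muscle, fell by 0.99 on the log2 scale, with an edgeR adjusted p of 1.41e-04. Dstn, the filament-severing protein destrin, was called at 0.35 with an edgeR adjusted p of 0.00823. Pfn1, the monomer-binding profilin, was called at -0.40 with an edgeR adjusted p of 0.0146, and stood at 599 CPM in the library labelled siUsf2 3, above the 309 to 425 CPM of siControl. Both calls ended when siControl 1 or siUsf2 1 was left out, at adjusted p of 0.0891 and 0.0788 for Dstn and 0.0966 and 0.0703 for Pfn1. Leaving out siUsf2 2 also ended the Dstn call, at 0.0966, and leaving out siControl 2 the Pfn1 call, at 0.0685.

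Of 17 tested genes for actin folding and modification, 1 was called lower and none higher, with a median of -0.14. That gene was 2310022A10Rik, at -0.64 ± 0.12 (SE) with an edgeR adjusted p of 4.95e-04. Its level in the library labelled siUsf2 3 was 36.9 CPM, inside the siControl range.

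The 25 tested nucleation genes had 2 called higher and 2 lower, with a median of 0.03. Diaph3, a formin that elongates unbranched filaments, rose by 0.60 on the log2 scale, with an edgeR adjusted p of 4.35e-04. Cobl, a nucleator of unbranched filaments, fell by 0.72 on the log2 scale, with an edgeR adjusted p of 6.57e-05. Fmnl1, a formin best known from blood cells, was called at -0.88 with an edgeR adjusted p of 0.0298, and the call ended without siControl 1, siControl 2 or siUsf2 2, at 0.195, 0.0734 and 0.293, and by limma-voom, at 0.0605. The library labelled siUsf2 3 had 10.3 CPM of Fmnl1, above every siControl library.

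Of 21 tested genes for capping, cross-linking and anchoring, 5 were called higher and 4 lower, with a median of -0.03. Cald1, the filament-binding caldesmon, rose by 0.47 on the log2 scale, with an edgeR adjusted p of 2.64e-04. Actn3, the alpha-actinin of fast muscle Z-discs, fell by 0.63 on the log2 scale, with an edgeR adjusted p of 5.02e-06, but stood at 283 CPM in the library labelled siUsf2 3, above the 208 to 226 CPM of siControl. None of the 7 tested actin-related and other actin-like genes was called by edgeR, and their median was -0.00.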

How the data were processed

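RNA-seq counts per Ensembl gene were deposited by the authors for 3 siControl and 3 siUsf2 libraries of C2C12 cells. Per the submitters' processing notes, FastQC, Trimmomatic, HISAT2, featureCounts, DESeq2 and the build mm10 were used. Versions, parameters, annotation release and strand setting have no statement in these notes, so reads of overlapping genes on opposite strands, and of genes and their pseudogene copies, may be split in ways that cannot be recovered. A deposited table of normalized values was not used.

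Of 55414 identifiers, 52133 had a symbol in GENCODE M21 (GRCm38), from which gene lengths and positions were also taken, and 3281 had none. Counts were tested with edgeR 4.0.16 (R 4.3.3; filterByExpr, TMM normalization, robust quasi-likelihood fit, group as the only term). P-values were adjusted by Benjamini-Hochberg over all genes tested and called below 0.05. CPM values are scaled by the total of each library, and RPKM divides them by the union of annotated exons. The fit was made with all 6 libraries and with the 5 without the library labelled siUsf2 3, and was first tested on simulated data. Shares, sums and ratios were compared by two-sided exact permutation tests over libraries (scipy 1.17.1), whose smallest p is 0.1 for 3 against 3 and 0.2 for 3 against 2 libraries. Intervals are 95% exact Poisson or binomial and cover counting error only, since no molecular identifiers are described in the labels. Pseudogenes were paired with a parent by aligning transcripts with minimap2 2.31, keeping matches of 150 bases or more that cover 50% or more of the pseudogene at 90% identity or more; 1960 parents received 5419 pseudogenes. Promoter sequences are from RefSeq (GRCm38.p6), which matched 4 of the 6 genes by symbol (not Actb and Actg2).

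Genes named were the 6 actins, pseudogene copies with at least 5% of the counts of a member and its copies, up to 3 called genes per list with the smallest p in the 5-library fit plus Srf, Mrtfa and Mrtfb, and the 3 genes nearest each muscle actin with at least 10 CPM (log2 with a prior count of 2). One gene that this rule names is not reported here. The members, lists and rules were chosen with earlier results of these data known. Alternatives were DESeq2 1.42.0, limma-voom (limma 3.58.1), scaling by RLE, by upper quartile or by library size, no filter, a filter of 1 CPM in 3 libraries, a fit without robust priors, a replicate block, pseudogene counts added to the parent, a stricter threshold of 0.01 and leaving out each library. Libraries of a group differed beyond sampling noise in their counts, and each was counted once.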

Additional observations from a re-analysis of the deposited data

How the results depend on the processing

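With all 6 libraries, Acta1, Actc1 and Actg2 passed the threshold in 4 alternatives, which each called 3 of the 6 genes. Over all genes tested, DESeq2 called 4.24% and limma-voom 0.624%. No filter called 12 higher and 104 lower of 29434 genes, and pseudogene counts added 38 and 151 of 14830. DESeq2 gave log2 fold changes of -1.77, -2.01 and 1.24 (adjusted p 3.96e-06, 1.72e-06 and 1.15e-09), limma-voom -1.83, -2.19 and 1.20, no filter -1.80, -2.04 and 1.21, and pseudogene counts added to the parent -1.76, -2.02 and 1.25. Leaving out 1 library gave -2.09 to -1.60 for Acta1, -2.36 to -1.81 for Actc1, -0.22 to 0.16 for Acta2, 1.10 to 1.33 for Actg2, -0.011 to 0.39 for Actb and 0.01 to 0.42 for Actg1, with 0 to 3 genes called, and 3 only without the library labelled siUsf2 3. Uncalled values changed sign with all 6 libraries: Acta2 under limma-voom (-0.0024), no filter (-0.0060) and the replicate block (-0.0073), and with pseudogene counts added Actg1 (-0.16) and the log2 ratio of Actb to Actg1 (0.31). With 5 libraries Acta1, Actc1 and Actg2 stayed past the threshold in every alternative run. Actb changed sign under library size (0.0019) and upper quartile scaling (0.027) and ran from -0.071 to 0.058 with 1 more library left out, Actg1 from -0.011 to 0.063, the log2 ratio of Actb to Actg1 from -0.064 to 0.023 and Acta2 from -0.28 to -0.15. The replicate block gave Acta2 -0.22 (edgeR adjusted p 0.0114) and Actg1 -0.017, called 1719 genes higher and 2270 lower where the fit without it called 855 and 1102, and called 0 genes with all 6 libraries. Among the 5 libraries siControl 3 had no same-numbered partner, so under the block it did not inform the group difference. Leaving siControl 3 out, without a block, called 1596 genes higher and 1964 lower of 16924 tested. Same-numbered libraries did not deviate together (correlations of -0.07, -0.00 and -0.07). These deviations are from group means that include the library labelled siUsf2 3, which stood far from the other libraries of its group. Without that library the correlations were -0.003 and 0.002 for replicates 1 and 2. Only 2 siUsf2 libraries then remain, and their deviations from their own mean mirror each other. Neither set of correlations therefore decides whether the numbers pair the libraries. The list genes were run under the same alternatives as a choice made after seeing the data. With all 6 libraries the number called was 9 higher and 4 lower by DESeq2 and 1 and 1 by limma-voom, no filter and pseudogene counts added, and 0 to 14 higher and 0 to 10 lower with 1 library left out. With 5 libraries it was 22 and 17 under the replicate block, and 6 to 20 higher and 7 to 15 lower with 1 more library left out. With all 6 libraries Mrtfb (-0.0010) turned to 0.028 by library size, 0.039 by upper quartile, 0.0025 by DESeq2, 0.054 by limma-voom, 0.0091 with the filter of 1 CPM, 0.015 with pseudogene counts added and -0.13 to 0.17 with 1 library left out. Pfn1 (0.01) turned to -0.079 by limma-voom, -0.024 with no filter, -0.064 with the replicate block and ran from -0.40 to 0.19 with 1 library left out, and Fmnl1 from -0.88 to 0.029. The cause of these changes was not tested. Among the 6 actin genes depth limits Actc1 most, which had 266 counts in the library labelled siUsf2 3.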
